A study of Mus musculus with 23 samples.

Results

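Matrix genes typical of stromal cells were followed through co-cultures in which mouse pancreatic stellate cells (PSCs) and tumour organoids of the pancreas had been separated by flow sorting. The members were chosen by name, 10 of 35523 genes measured, and each one's estimated reads were summed over its transcripts in 23 RNA-seq libraries. They are the small leucine-rich proteoglycans decorin (Dcn), lumican (Lum) and biglycan (Bgn), the large proteoglycan versican (Vcan), and the matricellular or adhesive glycoproteins periostin (Postn), tenascin C (Tnc), SPARC (Sparc), fibronectin (Fn1) and thrombospondins 1 and 2 (Thbs1, Thbs2). All 10 passed the filter on low counts in PSCs, and 8 passed it in organoids, where Lum and Postn did not.

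PSCs are fibroblast-like cells of the pancreas that lay down matrix when they are activated, and organoids are clumps of tumour cells that grow in a gel. The libraries came from 8 Egfr knockout (KO) and 4 Egfr wild type (WT) PSC fractions, and from 7 organoid fractions grown with KO PSCs and 4 grown with WT PSCs. Egfr encodes the epidermal growth factor receptor. KO PSCs were 4 lines, A3 and B4 of PSC4 and C5 and D4 of PSC5, which are called clones here although the labels do not use that word, and the WT cells carried the name Rosa in both parents. Each PSC4 line was grown with the organoid lines T12-LOH, T69A and T6-LOH, and each PSC5 line with T6-LOH alone. All cultures stood in Matrigel, a basement membrane extract that itself contains matrix proteins, for 3.5 days, in media that the labels give as reduced or control. The organoids were not described as edited, and the organoid fraction of the T69A culture with clone A3 was not analysed here. No label says that libraries came from separate cultures, and several libraries can come from a single clone, so the p-values measure the spread between these libraries.

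Proteoglycans are core proteins that carry sulfated sugar chains, and the small leucine-rich ones bind collagen fibrils and set how they pack. Decorin can also bind and dampen growth factors and receptors, EGFR among them. Matricellular proteins such as periostin, tenascin C, SPARC and the thrombospondins sit in the matrix and change how cells attach and signal rather than bearing load. Fibronectin is a scaffold on which other matrix proteins are laid down, and all of these are typical products of fibroblasts in the stroma of pancreatic tumours.

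The RefSeq table of the build GRCm38.p6 held promoters of 6 of the 10 members. Sequence is shown for the 4 of these that were called between T12-LOH and T6-LOH partners in PSC4 cells, as given below. The table had no entry used here for Dcn, Lum, Fn1 and Thbs1. Each sequence runs 5′ to 3′ on the strand of the gene, from 250 bases before to 50 bases after the annotated start. Capitals mark matches on either strand to 5 motifs, spelled TATAAA for the TATA box, GGGCGG for the GC box, CCAAT for the box of that name, TGANTCA for AP-1 and GGAATG for TEAD. Postn lies at chr3:54360857-54361156 (plus strand), Bgn at chrX:73483351-73483650 (plus strand), Sparc at chr11:55420031-55420330 (minus strand) and Tnc at chr4:64046966-64047265 (minus strand).
Postn: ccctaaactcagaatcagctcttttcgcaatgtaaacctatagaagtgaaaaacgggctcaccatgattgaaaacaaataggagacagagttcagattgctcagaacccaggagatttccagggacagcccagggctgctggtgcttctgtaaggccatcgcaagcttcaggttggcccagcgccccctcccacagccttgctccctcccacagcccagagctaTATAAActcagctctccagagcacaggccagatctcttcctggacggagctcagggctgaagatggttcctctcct
Bgn: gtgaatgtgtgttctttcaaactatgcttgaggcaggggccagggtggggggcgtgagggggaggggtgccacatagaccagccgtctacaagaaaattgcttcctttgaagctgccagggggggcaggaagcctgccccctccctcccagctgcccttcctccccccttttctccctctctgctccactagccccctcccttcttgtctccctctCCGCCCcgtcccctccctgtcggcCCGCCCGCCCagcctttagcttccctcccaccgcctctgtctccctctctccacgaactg
Sparc: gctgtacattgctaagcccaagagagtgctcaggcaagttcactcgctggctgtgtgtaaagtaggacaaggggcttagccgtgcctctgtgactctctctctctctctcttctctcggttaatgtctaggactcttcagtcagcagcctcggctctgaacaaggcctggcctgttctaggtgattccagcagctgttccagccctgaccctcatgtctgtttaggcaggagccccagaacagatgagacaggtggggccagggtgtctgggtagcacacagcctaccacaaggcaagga
Tnc: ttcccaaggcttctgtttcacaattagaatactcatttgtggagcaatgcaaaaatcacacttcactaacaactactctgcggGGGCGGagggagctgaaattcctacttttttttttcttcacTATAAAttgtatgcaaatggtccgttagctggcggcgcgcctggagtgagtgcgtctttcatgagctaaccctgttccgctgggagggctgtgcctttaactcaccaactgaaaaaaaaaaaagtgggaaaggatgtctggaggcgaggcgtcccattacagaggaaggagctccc
The Postn window held 1 TATA box that starts 26 bases before the annotated start. The Bgn window held 3 GC boxes, of which 2 overlap each other. The Tnc window held 1 TATA box and 1 GC box, and the Sparc window held none of the 5 motifs. Of all 32851 promoters that RefSeq gave, 13.6% held a TATA box, 35.7% a GC box, 37.4% a CCAAT box, 7.81% the AP-1 letters and 14.7% the TEAD letters. These matches are a description of letters and do not mark bound sites.

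Libraries held 21823084 to 34828131 estimated counts. Levels are given as CPM, which scales counts to library size, and comparisons between genes use TPM, which also divides by transcript length. Egfr mRNA was 57.3 to 345 CPM in KO PSCs, with a median of 113 CPM, against 278, 280, 323 and 419 CPM in WT PSCs. Every KO library was below the WT library of its own co-culture, but the D4 library, at 345 CPM, lay inside the WT range. The labels do not say which part of Egfr was edited, and an edited gene can still give mRNA. Sorting markers followed the labelled fractions. Pdgfrb averaged 337 CPM in PSCs and 0.104 CPM in organoids, and Epcam averaged 1.56 CPM in PSCs and 809 CPM in organoids. Summed endothelial markers reached at most 8.80 CPM and summed immune markers at most 7.61 CPM in any library. Clone B4 stood apart from the other PSC4 lines, with 49.3% of 14446 genes called against Rosa, compared with 7.34% for clone A3.

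In PSCs the 10 genes together made up 0.668 to 1.17% of all TPM. Bgn was the highest at 3284 ± 903 TPM (SD, n = 12 libraries), followed by Sparc at 1941 ± 614 TPM and Fn1 at 1164 ± 534 TPM. Dcn at 986 ± 986, Thbs1 at 681 ± 207 and Tnc at 499 ± 218 TPM came next. Postn at 341 ± 256 and Thbs2 at 340 ± 118 TPM were level, Vcan averaged 109 ± 26.0 TPM, and Lum was last at 14.8 ± 19.3 TPM. These means pool cultures, and Dcn was above Sparc in 4 of 12 libraries, 3 of them with T12-LOH. In the Rosa library with T12-LOH it was the highest member, at 3172 TPM beside 1606 TPM for Bgn. From Fn1 down to Thbs2, neighbours in this order differed by less than the larger of their SDs. The genes also differed in how much they varied between PSC libraries. The highest over the lowest PSC library was 79.5-fold for Lum, 41.1-fold for Dcn and 34.4-fold for Postn, but 1.95-fold for Vcan and 2.56-fold for Bgn. The other 5 genes lay between 2.68-fold (Thbs1) and 5.06-fold (Fn1).

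**Figure D1:**
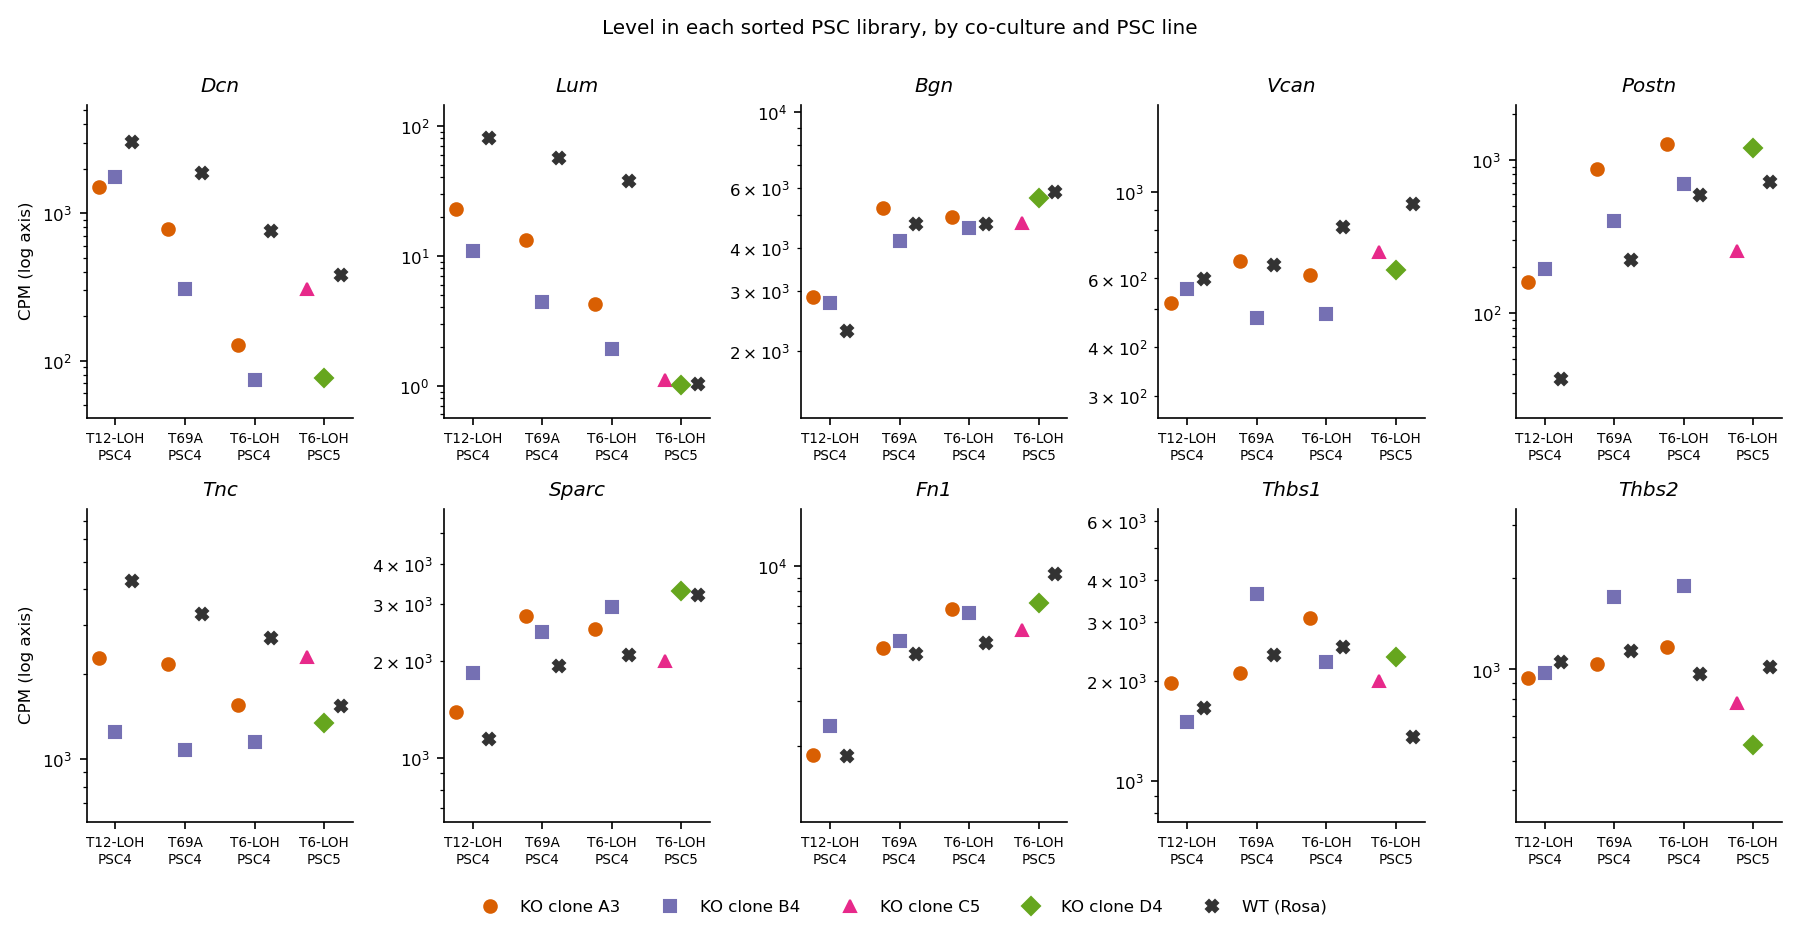
Level of each gene in CPM (log axis, scaled separately per gene) in the 12 sorted PSC libraries, by co-culture on the horizontal axis, with 1 point per library and KO clones left of WT (Rosa). Dcn and Lum are highest with T12-LOH and lie lower in KO than in WT of every PSC4 culture, while Postn and Fn1 are lowest with T12-LOH.

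The first comparison set KO PSCs against WT PSCs. Dcn and Lum had the largest differences, both towards lower levels in KO cells, but none of the 10 genes passed the test. With edgeR's quasi-likelihood test, co-culture as a block and Benjamini-Hochberg adjustment over 14756 genes, 0 of 10 members were called, against 0.0949% of all genes. At an unadjusted p under 0.05 the counts were 4 of 10 members and 1992 of 14756 genes. DESeq2 called 2 members, Dcn and Lum, but it also called far more of all genes than edgeR did (counts in the last section). In every one of the 10 genes the ranges of KO and WT libraries overlapped.

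Dcn, the collagen-binding proteoglycan, was 73.6 to 1750.3 CPM in KO PSCs with a median of 306 CPM, against 381, 752, 1873 and 3025 CPM in WT PSCs. Each KO library lay below the WT library of its own co-culture, in 8 of 8 cases, at 9.79 to 79.7% of it. The fitted log2 fold change was -1.71 (SE 0.44, edgeR adjusted p = 0.173), and DESeq2 gave an adjusted p of 0.0041. Leaving out any 1 library gave values between -2.02 and -1.24, and counts summed per PSC line gave -1.08 (edgeR adjusted p = 1.0).

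Lum, a corneal and skin proteoglycan that also binds collagen, was 1.02 to 23.0 CPM in KO PSCs with a median of 4.33 CPM. In WT PSCs it was 1.02, 37.7, 56.8 and 80.8 CPM, the lowest of these being the PSC5 line. All 6 PSC4 KO libraries were far below their own WT, whereas the 3 PSC5 libraries were alike at 1.02 to 1.10 CPM. The fitted log2 fold change was -2.41 (SE 0.51, edgeR adjusted p = 0.134), with an adjusted p of 0.000328 by DESeq2. Without the WT library of PSC5 it was -2.87, with an edgeR adjusted p of 0.0397, and with counts summed per PSC line it was -1.53, with an edgeR adjusted p of 1.0. Dcn and Lum are neighbours on chromosome 10 in the RefSeq gene table.

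Tnc, an adhesion-modulating glycoprotein, averaged 1647 ± 525 CPM in KO PSCs (SD, n = 8) and 2949 ± 1146 CPM in WT PSCs (SD, n = 4). It was below its own WT in 7 of 8 KO libraries, the exception being clone C5, with a log2 fold change of -0.81 (SE 0.30, edgeR adjusted p = 0.308). Vcan averaged 582 ± 83.5 CPM in KO and 747 ± 151 CPM in WT PSCs, and was also below its own WT in 7 of 8 libraries. Its log2 fold change was -0.36 (SE 0.12, edgeR adjusted p = 0.276).

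Postn, a matricellular protein that binds integrins, ran the other way. It averaged 628 ± 446 CPM in KO PSCs and 389 ± 314 CPM in WT PSCs and was above its own WT in 7 of 8 libraries, again all but C5. The fitted log2 fold change was 1.04 (SE 0.49, 95% interval -0.06 to 2.15, edgeR adjusted p = 0.392). Sparc was above its own WT in 7 of 8 libraries, with a log2 fold change of 0.24 (SE 0.17). Bgn, Fn1 and Thbs2 had fitted log2 fold changes of 0.02, 0.03 and 0.01, and each changed sign when PSC lines in place of libraries were the unit. Thbs1, which can activate latent TGF-beta, had a log2 fold change of 0.26 with a 95% interval of -0.14 to 0.65.

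The KO difference was also compared between parent lines by an interaction term. No member passed, and 0% of 15336 genes were called, with 86 called by DESeq2. In simulated data this fit found 1% of the smaller changes put in (2-fold) and 39% of the larger ones. The lack of calls therefore does not show that the KO difference was alike in both parents. Fn1 had the smallest unadjusted p of the members. It was above its own WT in all 6 PSC4 KO libraries and below it in both PSC5 KO libraries, and the interaction was -0.76 on the log2 scale (SE 0.25, edgeR adjusted p = 0.947). With 2 KO libraries in PSC5, the 95% interval of this difference ran from -1.32 to -0.20.

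Clones of PSC4 were then compared with each other, with the 3 organoid partners as repeats. In clone A3 2 of 10 members passed the edgeR test against Rosa, against 7.34% of all genes. In clone B4 5 of 10 passed, against 49.3% of all genes, which is about the share of the background. Lum and Tnc passed in both clones and fell in both.

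Lum was 4.28, 13.2 and 23.0 CPM in A3 and 1.92, 4.38 and 10.8 CPM in B4, with T6-LOH, T69A and T12-LOH partners in that order, against 37.7, 56.8 and 80.8 CPM in Rosa. Every library of either clone lay below every Rosa library. The log2 fold change was -2.32 for A3 (SE 0.28, edgeR adjusted p = 0.0116) and -3.59 for B4 (SE 0.31, edgeR adjusted p = 0.000292). Leaving out 1 of 3 libraries (Rosa or A3 with T69A, or A3 with T12-LOH) raised the A3 adjusted p to between 0.0511 and 0.0607.

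Tnc was 1564, 2175 and 2292 CPM in A3 and 1157, 1083 and 1253 CPM in B4, against 2682, 3277 and 4289 CPM in Rosa, in the same order of partners. The 3 lines did not overlap, with B4 lowest and Rosa highest. The log2 fold changes were -0.75 for A3 (SE 0.13, edgeR adjusted p = 0.0158) and -1.54 for B4 (SE 0.13, edgeR adjusted p = 8.99e-05). The A3 call was lost without the Rosa library with T69A or T6-LOH, or the A3 library with T6-LOH or T12-LOH, at adjusted p values of 0.0579 to 0.0901.

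B4 was also compared with A3 directly, and 2 of 10 members were called, against 48% of all genes. Tnc was lower in B4 by a log2 value of -0.79 (SE 0.13, edgeR adjusted p = 0.00163). Lum was lower by -1.28 (SE 0.31, edgeR adjusted p = 0.0164), but this call was lost without any one of 4 libraries, at adjusted p values of 0.0568 to 0.0786. In B4 against Rosa, Dcn fell (log2 -2.27, SE 0.55, edgeR adjusted p = 0.0194), Vcan fell (-0.44, SE 0.14, adjusted p = 0.0295) and Sparc rose (0.49, SE 0.11, adjusted p = 0.00643). The Dcn call was lost without Rosa with T69A, B4 with T69A or B4 with T6-LOH, at adjusted p values of 0.0571 to 0.0826, and the Vcan call was lost without any one of 5 libraries. Sparc stayed past the threshold in each of these leave-one-out fits. Of 20 fibroblast markers 5 were higher and 6 lower in B4 than in Rosa, and 0 were higher and 2 lower in A3.

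**Figure D2:**
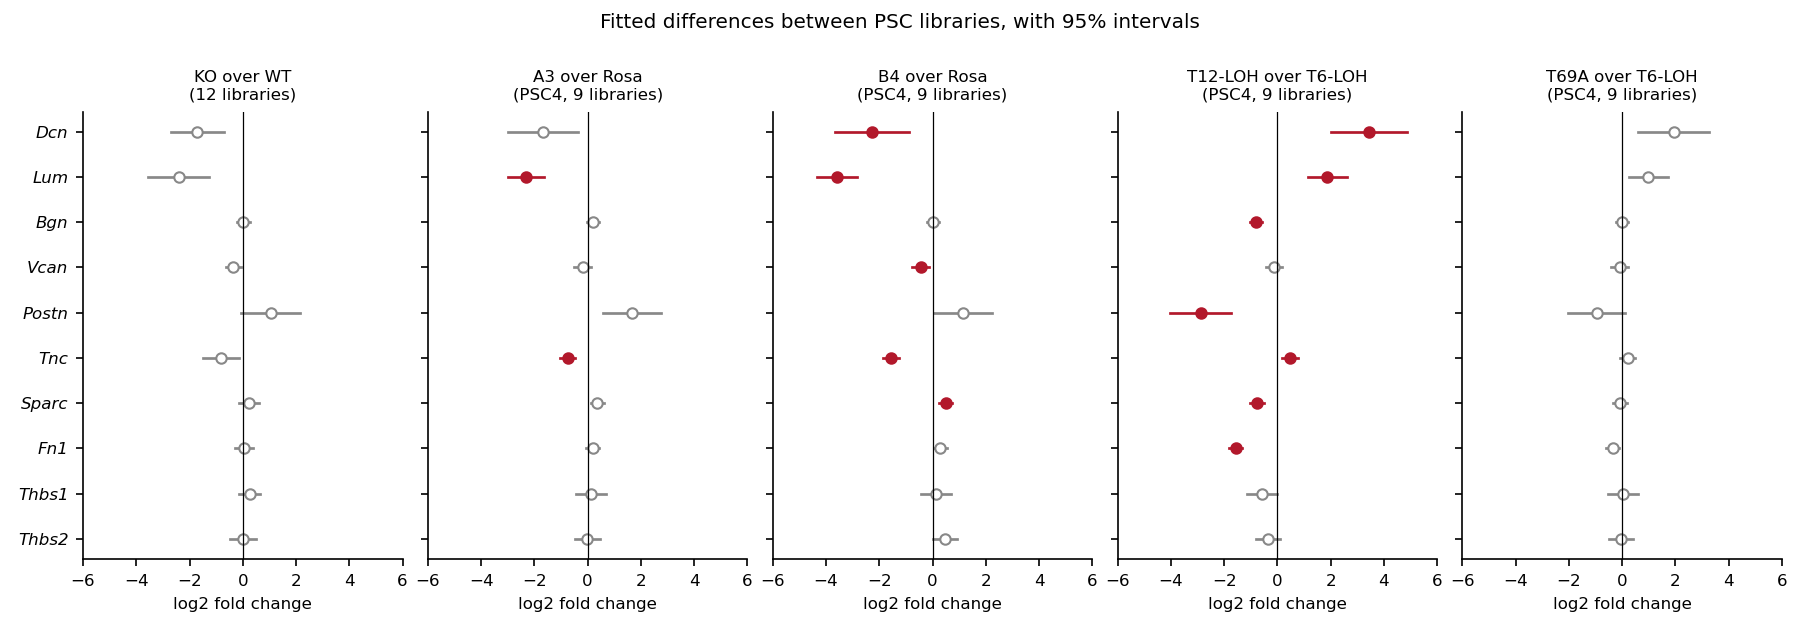
Fitted log2 fold change of each gene (points) with its 95% interval (lines) in 5 comparisons of PSC libraries, where a value above 0 means higher in the first-named group. Filled red points have an edgeR adjusted p under 0.05, namely 0, 2, 5, 7 and 0 of the 10 genes from left to right.

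Most members also differed between PSCs grown with T12-LOH and with T6-LOH organoids. In the 9 PSC4 libraries, 7 of 10 members passed the edgeR test between T12-LOH and T6-LOH co-cultures, against 17.3% of 14446 genes. Dcn, Lum and Tnc rose with T12-LOH, where 8.3% of all genes rose, and Fn1, Postn, Bgn and Sparc fell, where 9.03% of all genes fell. Thus members of the same family, Dcn and Lum on 1 side and Bgn on the other, moved in opposite directions. The members' median log2 fold change was -0.47, and that of all genes was 0.00.

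Dcn was 1509.8, 1750.3 and 3025 CPM with T12-LOH in A3, B4 and Rosa, against 128, 73.6 and 752 CPM with T6-LOH in the same lines. The groups did not overlap, and the ratio was 11.8-fold in A3, 23.8-fold in B4 and 4.02-fold in Rosa. The fitted log2 fold change was 3.44 (SE 0.57, edgeR adjusted p = 0.0164). The call was lost without the A3 or B4 library with T6-LOH or the A3 library with T12-LOH, at adjusted p values of 0.058 to 0.0816, while the log2 value stayed between 2.78 and 3.97. Lum was 23.0, 10.8 and 80.8 CPM with T12-LOH, against 4.28, 1.92 and 37.7 CPM with T6-LOH. It was higher in each of the 3 lines although the groups overlapped, with a log2 fold change of 1.88 (SE 0.29, edgeR adjusted p = 0.0112), and the call was lost without the A3 library with T12-LOH (adjusted p = 0.056).

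Fn1 was 1847, 2390.1 and 1831 CPM with T12-LOH in A3, B4 and Rosa, against 6822, 6555 and 5009 CPM with T6-LOH. The groups stood well apart, with a log2 fold change of -1.57 (SE 0.11, edgeR adjusted p = 0.000359). Postn was 159, 193 and 37.0 CPM with T12-LOH, against 1272, 693 and 588 CPM with T6-LOH, also without overlap. Its log2 fold change was -2.87 (SE 0.46, edgeR adjusted p = 0.0143), and the call was lost without the A3 library of either partner, at adjusted p values of 0.0582 and 0.0715.

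Bgn, a decorin relative that can also signal through Toll-like receptors, was 2874, 2764 and 2288 CPM with T12-LOH, against 4946, 4573 and 4693 CPM with T6-LOH. Its log2 fold change was -0.82 (SE 0.10, edgeR adjusted p = 0.00226). Sparc, a collagen-binding glycoprotein, was 1389.5, 1839 and 1145 CPM with T12-LOH, against 2514, 2942 and 2092 CPM with T6-LOH, a log2 fold change of -0.77 (SE 0.11, edgeR adjusted p = 0.00388). In both genes the groups did not overlap. Fn1, Bgn and Sparc stayed called whichever PSC4 library was left out.

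Tnc was 2292, 1253 and 4289 CPM with T12-LOH, against 1564, 1157 and 2682 CPM with T6-LOH. Each line was higher with T12-LOH but the groups overlapped. The log2 fold change of 0.47 (SE 0.13, edgeR adjusted p = 0.0397) lost its call without any one of 5 libraries, at adjusted p values of 0.0754 to 0.184. Thbs1 had a log2 fold change of -0.59 (SE 0.23, edgeR adjusted p = 0.14), Thbs2 of -0.35 (SE 0.19) and Vcan of -0.13 (95% interval -0.44 to 0.19), and none of these 3 passed.

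Fibroblast markers moved with the partner as well. Of 20 such markers 1 was higher and 10 were lower with T12-LOH, and their summed level was 10285 to 11082 CPM with T12-LOH against 17154 to 19347 CPM with T6-LOH. Their part in the member differences was not tested, and fewer cells of a type and less RNA per cell cannot be told apart in such bulk libraries. Summed epithelial markers in the same PSC libraries were 39.2 to 68.1 CPM with T12-LOH against 60.0 to 87.9 CPM with T6-LOH.

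With T69A in place of T6-LOH, 0 of 10 members passed the edgeR test, against 4.11% of all genes, and 3 members (Dcn, Lum and Fn1) passed with DESeq2. DESeq2 also called more of all genes in this comparison than edgeR did (counts in the last section). Dcn was 781, 308 and 1873 CPM with T69A in A3, B4 and Rosa, against the T6-LOH values above, and so was higher in each line. Its log2 fold change was 1.93 (SE 0.53, edgeR adjusted p = 0.103), that of Lum was 0.98 (SE 0.30, adjusted p = 0.113), and that of Fn1 was -0.35 (SE 0.11, adjusted p = 0.098). T69A values of Dcn, Lum, Postn and Fn1 lay between those with T12-LOH and T6-LOH in each of the 3 PSC4 lines. Summed epithelial markers were highest in the PSC libraries grown with T69A, at 161 to 212 CPM, and the part of carried-over RNA was not tested.

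Between parent lines, PSC5 and PSC4 cells grown with T6-LOH gave 0 of 10 members called, against 0.014% of 14236 genes, and 1 member, Lum, passed with DESeq2. Here too DESeq2 called far more of all genes than edgeR did (counts in the last section). Lum was 1.02 to 1.10 CPM in the 3 PSC5 libraries, against 4.28, 1.92 and 37.7 CPM in the PSC4 lines A3, B4 and Rosa, with no overlap. The fitted log2 fold change was -2.70 (SE 0.88, edgeR adjusted p = 0.345). Thbs2 followed with -0.78 (SE 0.34, edgeR adjusted p = 0.413).

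Isoforms were read from the authors' transcript TPM, as the percent of full-length TPM that carries an exon. These shares are model estimates for transcripts that share most of their sequence, and no test was made on them. Fibronectin has 2 classical extra domains, EIIIB and EIIIA, each in an exon of its own, and both are known from cell-made rather than plasma fibronectin. In PSCs the 273-base EIIIB exon was in 46.2% ± 11.8 and the 270-base EIIIA exon in 55.5% ± 9.23 of Fn1 TPM (SD, n = 12).

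EIIIB inclusion was higher in clone B4 than in the other PSC4 lines, and those 2 lines overlapped. It was 57.0 to 63.3% in the 3 B4 libraries, 31.2 to 35.9% in the 3 A3 libraries and 32.3 to 41.2% in the 3 Rosa libraries of PSC4. In PSC5 it was 58.3% in C5, 50.03% in D4 and 53.1% in Rosa. B4 therefore stood above both other PSC4 lines in every library, although its total Fn1 level differed from Rosa by a log2 value of 0.29 (SE 0.11, edgeR adjusted p = 0.0539). EIIIA was also highest in B4, at 68.0 to 69.2% in B4, 44.7 to 53.0% in A3 and 46.9 to 47.6% in Rosa. The only one of 7 full-length Fn1 transcripts with EIIIB also carries EIIIA. Each EIIIA share therefore contains the EIIIB share, and the exons are not separate observations.

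Periostin showed a like pattern in an 81-base alternative exon. It was in 34.0 to 38.1% of Postn TPM in B4, in 9.04 to 15.5% in A3 and in 11.1 to 16.0% in Rosa of PSC4, and in 13.1 to 23.7% in the PSC5 lines. B4 did not overlap with any other line. The 273-base alternative exon of Tnc was in 9.92 to 19.0% of its TPM over all PSC libraries. For Vcan the V0 form made up 63.9% ± 4.38 and the V1 form 35.9% ± 4.49 of TPM, while V2 and V3 averaged 0.201% and 0.0112%.

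**Figure D3:**
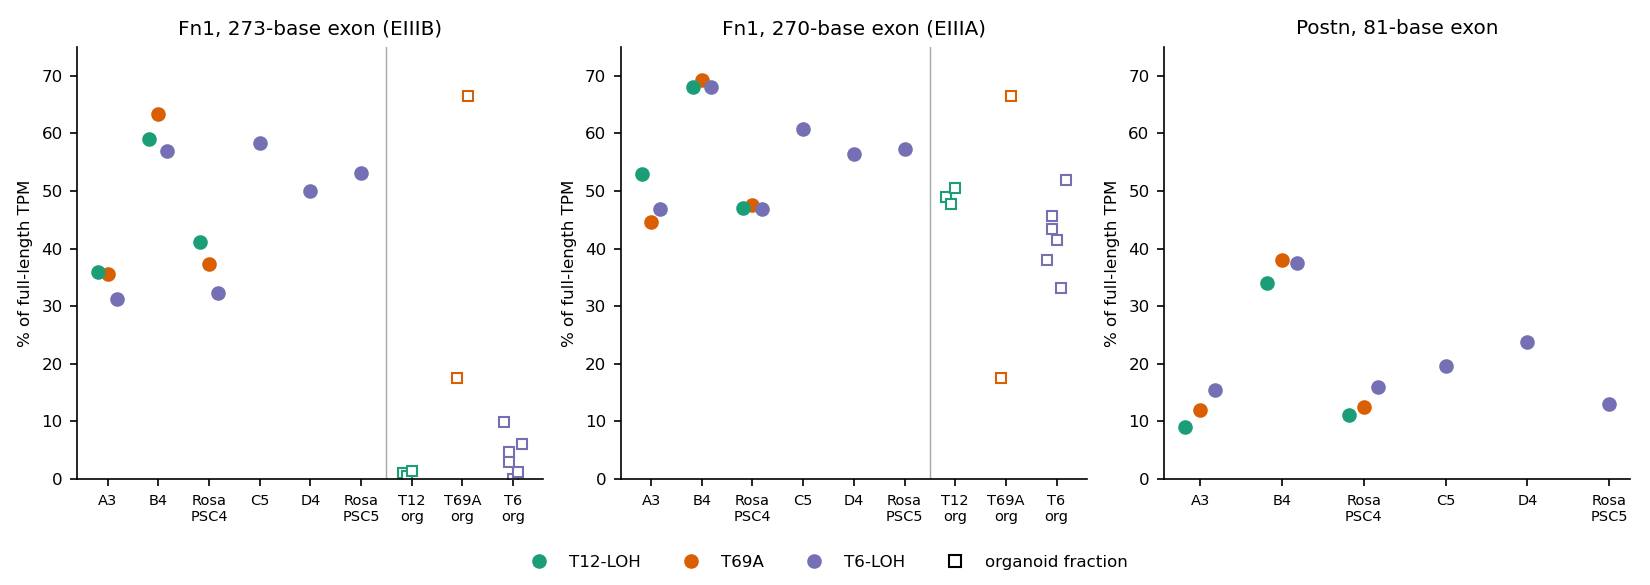
Percent of full-length TPM that carries the EIIIB or EIIIA exon of Fn1 and the 81-base exon of Postn, per library, by PSC line and, right of the grey line, by organoid line. Clone B4 lies above A3 and PSC4 Rosa in all 3 panels, and T12-LOH organoids have EIIIB at 0.612 to 1.38% beside EIIIA at 47.8 to 50.5%. The transcript counted for EIIIB also carries EIIIA, so the Fn1 panels are not separate observations.

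In the organoid fractions the 10 genes together made up 0.00998 to 0.0740% of counts, against 1.40 to 2.50% of counts in PSCs. Each member was tested between the fractions over 11 pairs of PSC and organoid libraries of the same culture, and all 10 were higher in PSCs, against 36.3% of 16227 genes. The members were chosen as genes typical of stromal cells, so this direction was largely set in advance and the count is a description. The gap was smallest for Thbs1, with a log2 fold change of 3.11 (SE 0.26, edgeR adjusted p = 1.52e-07). It was 6.59 for Fn1 (SE 0.98, adjusted p = 4.13e-05) and 8.10 for Vcan (SE 0.16, adjusted p = 1.05e-12). Of the other 7, Lum had 3 and Postn 43 counts in all over 11 organoid libraries, and both passed the filter through PSC libraries alone. The rest had fitted values of 10.94 (Tnc) to 12.12 (Dcn).

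PSC carry-over was estimated per organoid library as the median, over 19 fibroblast markers of at least 50 CPM in PSCs, of organoid CPM over the CPM of the matching PSC library, in percent. The PSC share averaged 0.0469% ± 0.0351 with KO PSCs (SD, n = 7) and 0.0803% ± 0.0486 with WT PSCs (SD, n = 4). Summed over all 20 markers, the level was 16.9 to 25.2 CPM with KO PSCs and 22.7 to 46.8 CPM with WT PSCs. Single markers spread widely around the median. The highest marker of a library reached 1.70 to 5.38%, and 4 markers averaged over 1 CPM in organoids (Pcolce 14.6, Col1a1 2.62, Col5a1 1.35 and Pdgfra 1.21 CPM).

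Thbs1, Fn1 and Vcan were above this share in 11 of 11 libraries, while Bgn was above it in 4, Dcn in 1 and Lum in 1. Thbs1 in organoids was 2.67 to 26.9% of its PSC level, a median of 253 times the PSC share of the library. It was 97.3 to 430 CPM with KO PSCs, with a median of 294 CPM, and 130, 209, 322 and 366 CPM with WT PSCs. Thbs1 lay inside the range of single markers in 1 of 11 libraries. Fn1 was 0.0711 to 28.3% of its PSC level, a median of 21.7 times the share, and inside the range of single markers in 8 of 11 libraries, all but those of T12-LOH. Vcan was 0.224 to 0.484% of its PSC level, a median of 6.62 times the share, but inside the range of single markers in all 11 libraries.

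Bgn, Sparc, Postn, Thbs2 and Tnc had medians of 0.806, 0.712, 0.698, 0.532 and 1.03 times the PSC share, and were above it in 1 (Thbs2) to 6 (Tnc) of 11 libraries. Dcn had a median of 0.0790 times the share, and had 5 counts in all over 7 libraries grown with KO PSCs and 77 over 4 grown with WT PSCs. Lum had 0 counts in 10 of 11 libraries, which allows up to 0.0907 to 0.136 CPM per library (3 counts, counting error only).

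**Figure D4:**
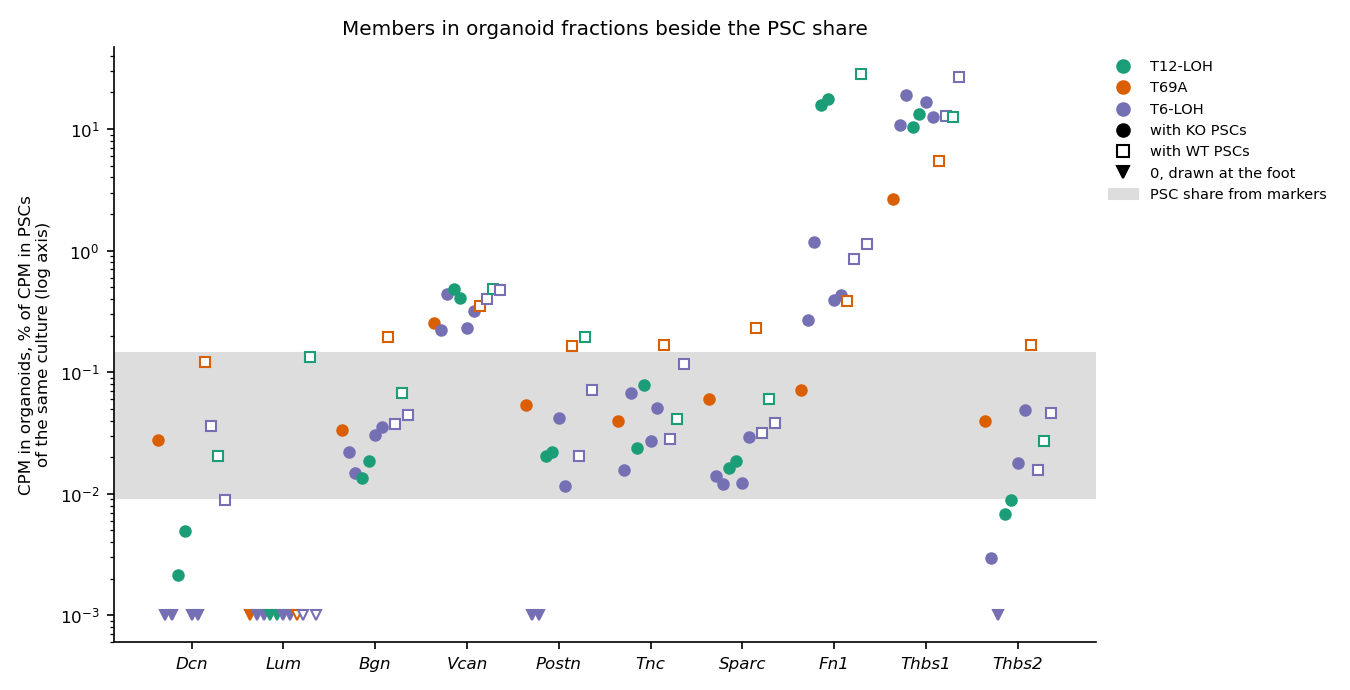
Level of each gene in an organoid library as a percent of its level in the PSC library of the same culture (log axis), with 1 point per organoid library, coloured by organoid line. The grey band spans the PSC shares of the 11 libraries. Thbs1 (2.67 to 26.9%) and T12-LOH Fn1 (up to 28.3%) lie far above it, and Dcn, Bgn, Sparc, Postn, Tnc and Thbs2 lie mostly inside or below it.

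Organoids grown with KO PSCs were compared with organoids grown with WT PSCs, again with co-culture as a block. Of the 8 members tested 6 fell (Bgn, Dcn, Sparc, Thbs2, Tnc and Vcan), against 5.34% of 14750 genes that fell and 9.16% that changed in either direction. Of these, Dcn passed the filter on low counts through WT cultures alone, so it could be called only as a fall. Thbs2 also needed WT cultures to pass it, at 0 to 16 counts per library with KO PSCs and 5 to 42 with WT PSCs. Its fall is therefore a description as well. The PSC share averaged 0.0469% with KO and 0.0803% with WT PSCs. In T12-LOH cultures it was 0.112% with A3 and 0.0621% with B4, against 0.0844% with Rosa. Summed fibroblast markers in the same T12-LOH organoids were 16.9 CPM with A3 and 18.1 CPM with B4, against 26.3 CPM with Rosa. Bgn in those organoids was 0.387 CPM with A3 and 0.515 CPM with B4, against 1.56 CPM with Rosa. Of 13 fibroblast markers tested 3 fell and 0 rose, and the part of carried-over PSC RNA in the members' differences was not tested.

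With the log2 PSC share of each library in the fit, 1 of 8 members was called, and fewer of all genes were called than without it. That member was Dcn, which only WT cultures had brought past the filter. The log2 fold changes of the other 5 that had fallen stayed negative. They were -1.67 for Tnc, -1.37 for Thbs2, -1.22 for Bgn, -0.92 for Sparc and -0.68 for Vcan, at edgeR adjusted p values of 0.171 to 0.332. Without the co-culture block Dcn and Thbs2 did not pass the filter and 0 of 6 members were called, at log2 fold changes of -1.98 for Tnc, -1.82 for Bgn, -1.62 for Sparc and -0.78 for Vcan.

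Bgn was 0.387 to 1.96 CPM with KO PSCs, with a median of 1.09 CPM, against 1.56, 1.75, 2.61 and 9.21 CPM with WT PSCs. The ranges overlapped, though each KO culture lay below its own WT culture, and the log2 fold change was -1.45 (SE 0.30, edgeR adjusted p = 0.0161). The call was lost without the WT culture of T69A (adjusted p = 0.0551) or of T12-LOH (0.0503). Dcn had a fitted log2 fold change of -4.15 (SE 0.53, edgeR adjusted p = 0.0025), was at 0 in 4 of 7 KO cultures, and was -3.72 (adjusted p = 0.0296) with the PSC share in the fit. KO cultures held at most 2 Dcn counts each, so Dcn passed the filter on low counts through WT cultures alone. A fall was then the only call that it could give, and DESeq2 gave it no adjusted p. In the KO PSCs themselves Dcn was below its own WT in 8 of 8 libraries without passing the test.

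Vcan (log2 -0.85, SE 0.19, edgeR adjusted p = 0.0217), Thbs2 (-1.62, SE 0.40, adjusted p = 0.0296), Sparc (-1.19, SE 0.32, adjusted p = 0.0382) and Tnc (-1.59, SE 0.43, adjusted p = 0.0449) lost their calls when single libraries were left out. This held for 3 of 11 libraries for Vcan, 7 for Thbs2, 6 for Sparc and 8 for Tnc. Thbs1, which organoid libraries held far above the PSC share, did not pass, with a log2 fold change of -0.10 (SE 0.11, 95% interval -0.34 to 0.14, edgeR adjusted p = 0.589). Fn1 had -1.03 (SE 0.55, edgeR adjusted p = 0.285).

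Organoid lines differed in both genes. Fn1 was 289, 425 and 518 CPM in T12-LOH organoids, grown with A3, B4 and Rosa PSCs, against 18.3, 77.6 and 43.0 CPM in T6-LOH organoids with the same PSC lines. The groups did not overlap, and the log2 fold change was 3.26 (SE 0.70, edgeR adjusted p = 0.028). That call was lost without any one of 5 libraries, at adjusted p values of 0.0965 to 0.131, while the log2 value stayed between 2.92 and 3.97. In PSCs the same pair of cultures showed the opposite direction, with lower Fn1 beside T12-LOH. In T12-LOH organoids EIIIB was in 0.612 to 1.38% of Fn1 TPM, from 8802 to 14117 reads, whereas the PSCs of the same cultures had 35.9 to 59.1%.

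Thbs1 was 205, 199 and 209 CPM in T12-LOH organoids, against 329, 430 and 322 CPM in T6-LOH organoids, a log2 fold change of -0.82 (SE 0.16, edgeR adjusted p = 0.00864) without overlap. The call was lost without the T12-LOH library grown with Rosa (adjusted p = 0.058). In all, 2 of 8 members were called here, against 62% of 14541 genes. In T69A organoids, with 2 libraries, Thbs1 was 97.3 CPM with B4 and 130 CPM with Rosa, lower than T6-LOH by a log2 value of -1.69 (SE 0.20, edgeR adjusted p = 0.00165). There 5 of 8 members were called, against 51.3% of all genes. The other 4 (Bgn, Dcn, Sparc and Thbs2) were higher, at log2 values of 1.68 to 4.04. Thbs2, the highest of these, had 42 and 16 counts in T69A and at most 8 in any other library of this fit. It passed the filter on low counts through T69A alone, so it could be called only as a rise. Dcn had at most 9 counts in the T6-LOH libraries of this fit and passed the filter without them. The T69A library grown with Rosa had the highest PSC share, at 0.145%. The part of that share in these 4 differences was not tested, and Bgn and Dcn lost their calls without that library or without the T6-LOH library grown with Rosa.

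Related matrix genes were counted by lists in the same fits. Between KO and WT PSCs 0 genes were called in any of 6 lists, against 0.0949% of all 14756 genes, so lists of this size would be likely to hold none. Between T12-LOH and T6-LOH partners, 8.3% of all genes rose and 9.03% fell, and each list's counts stand beside these shares. In that comparison 0 of 9 other small leucine-rich proteoglycans rose and 5 fell. Fmod (fibromodulin, a collagen-binding relative of lumican) averaged 1.82 CPM with T12-LOH and 93.7 CPM with T6-LOH, a log2 fold change of -5.66 (SE 0.54, edgeR adjusted p = 0.00353). Prelp averaged 19.4 and 112 CPM in the same order (log2 -2.49, SE 0.14, edgeR adjusted p = 0.000246). The list's median log2 fold change was -1.52.

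Of 21 other matricellular proteins 1 rose and 12 fell with T12-LOH, with a list median of -0.79. Tgfbi averaged 106 CPM with T12-LOH and 246 CPM with T6-LOH (log2 -1.20, SE 0.09, edgeR adjusted p = 0.000392), and Fstl1 averaged 545 and 1131 CPM (log2 -1.01, SE 0.12). Of 17 other large and cell-surface proteoglycans 1 rose (Gpc4, a glypican, log2 0.70, SE 0.10) and 7 fell, among them the perlecan gene Hspg2 (log2 -0.51, SE 0.07). Of 15 receptors of the members 0 rose and 4 fell, including Cd44, which binds hyaluronan (log2 -0.59, SE 0.09).

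Of the enzymes that build chondroitin and dermatan sulfate chains, 0 of 21 rose and 2 fell, with a list median of -0.04, and the share that fell was near that of all genes. Of 13 proteases that cut the members 5 rose and 2 fell. Mmp3 (stromelysin 1, which cleaves decorin and fibronectin) averaged 1347 CPM with T12-LOH and 605 CPM with T6-LOH (log2 1.43, SE 0.24, edgeR adjusted p = 0.0138). Among the small leucine-rich proteoglycans tested in this comparison, Dcn and Lum were the ones that rose.

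As a description of pattern, the gene outside the members with the highest Pearson correlation of log2(CPM + 1) over the 12 PSC libraries was taken for each member among 9263 genes. It was Slc16a1 for Dcn (r = 0.958), Eif1ad for Lum (0.946), Islr for Fn1 (0.966) and Rhoj for Postn (0.959). For Tnc it was Cit (0.951), for Sparc Tmeff1 (0.951), for Bgn Saal1 (0.942) and for Thbs1 Mef2c (0.926). The lowest of these maxima were those of Thbs2 with Tm7sf3 (0.903) and of Vcan with Sppl2a (0.866). The libraries share PSC lines and organoid partners, so these values carry no test.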

How the data were processed

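Per the labels' protocols, RNA of both sorted fractions was purified with PureLink columns. The deposited values are 1 expected count and 1 TPM for each transcript, which the authors made with Salmon 1.9.0 (genome build GRCm39), as the submitters' processing notes state. Strandedness, library kit and the authors' annotation were not stated in any source at hand. Of 117135 transcripts, 115973 (99.0%) were matched by identifier to GENCODE M21, used for names and exon lengths, because its build differs. Unmatched transcripts held 0.364 to 0.443% of counts and were left out.

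Expected counts were summed per gene and rounded. Tests used edgeR 4.0.16 in R 4.3.3 (TMM, filterByExpr, robust glmQLFit and glmQLFTest) with Benjamini-Hochberg adjustment over all genes tested and a threshold of 0.05. Designs had co-culture as a block (KO over WT), PSC line and organoid line (PSC4 comparisons), or culture as a block (fractions). The interaction was fitted over all 12 PSC libraries. CPM uses TMM library sizes over all 23 libraries, and TPM served for levels between genes and for isoform shares. Intervals and count limits cover counting error only where counts are named. Alternatives were DESeq2 1.42.0, RLE size factors (edgeR), no filter, limma 3.58.1 with PSC line as a random effect, line sums, other covariates and leaving out each library. Fits were tested on simulated data. No pair of libraries of 1 group agreed within sampling noise, the lowest chi-square being 10.21 times its degrees of freedom.

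The members and gene lists were chosen with earlier results of these data known. Named genes are all members, the most correlated gene of each, and up to 3 genes of a list with the smallest p.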

Additional observations from a re-analysis of the deposited data

Results flagged for a closer look

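Each member was checked for a library far from the others in each of the 4 groups, over 40 groups of 4 to 8 libraries. A library was taken as far when its gap to the next, divided by the range of the group, passed the 95% critical value for that number of libraries. Chance marks about 1 in 20 groups, and 4 of 40 were marked here, all in organoid fractions.

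In organoids grown with WT PSCs, the T69A library had 9.21 CPM of Bgn, with 2.61 CPM in the next highest, and 4.44 CPM of Sparc, with 1.22 CPM in the next. The same library had the highest PSC share from fibroblast markers, at 0.145%. The T12-LOH library grown with WT PSCs had 0.109 CPM of Lum, from 3 counts, and the other 3 had 0. In organoids grown with KO PSCs, the T69A library had 0.684 CPM of Thbs2, with 0.276 CPM in the next highest, and a PSC share of 0.0522%. The part of carried-over PSC RNA in these values was not tested.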

How the results depend on the processing

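The numbers in the titles are not shared by any 2 groups, so libraries were matched by culture or co-culture and not by number. Between KO and WT PSCs 14 genes were called, against 23 with no filter, 613 with DESeq2, 4 with no co-culture block, 0 with counts summed per PSC line, 0 with PSC line as a random effect, and 0 to 51 with 1 library left out. Members called were 0, 2 with DESeq2 and 0 to 1 with 1 library left out. In the same order of line sums, random effect and no block, Bgn was -0.090, -0.015 and -0.010 on the log2 scale and Fn1 was -0.19, -0.11 and -0.038. Thbs2 was -0.18 with both line sums and random effect.

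Organoids gave 1351 genes and 6 members, 0 and 0 with no co-culture block, 527 and 1 with the PSC share in the fit, and 203 to 1832 genes and 1 to 6 members with 1 library left out. The interaction gave 0 genes, 86 with DESeq2 and 0 to 2 with 1 left out. The T69A over T6-LOH count in PSC4 cells was 594 genes, 1124 with DESeq2 and 1 to 856 with 1 left out, and its members called were 0, 3 and 0 to 1. PSC5 over PSC4 gave 2 genes, 47 with no filter, 603 with DESeq2 and 0 to 3 with 1 left out, and 1 member with DESeq2. Clone A3 over Rosa gave 2 members, 5 with DESeq2 and 0 to 3 with 1 left out, from 161 to 1311 genes. B4 over Rosa gave 3 to 6 members, B4 over A3 1 to 5, and T12-LOH over T6-LOH 3 to 8 members from 902 to 2622 genes. Organoid members called were 0 to 3 for T12-LOH and 3 to 6 for T69A over T6-LOH. The median PSC share over organoid libraries was 0.0508 to 0.0572% with 1 left out and 0.192% as a mean over markers.

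Some log2 values changed sign. With all libraries in the fit they lay between -0.22 and 0.30, except 1.5 for organoid Tnc (T69A over T6-LOH) and 0.94 for Dcn in the interaction. B4 over Rosa for Bgn was -0.0061 with RLE factors, -0.0035 with no filter and -0.0061 with DESeq2, and organoid Thbs1 for KO over WT was 0.066 with no block. Leaving out 1 library gave the following ranges. For KO over WT, Bgn was -0.051 to 0.10, Fn1 -0.082 to 0.24 and Thbs2 -0.18 to 0.25. For A3 over Rosa, Thbs1 was -0.0084 to 0.38 and Thbs2 -0.20 to 0.20. For B4 over Rosa, Bgn was -0.099 to 0.090 and Thbs1 -0.24 to 0.29, and for B4 over A3 Thbs1 was -0.36 to 0.15. For T69A over T6-LOH in PSC4 cells, Bgn was -0.085 to 0.057, Vcan -0.24 to 0.027, Sparc -0.23 to 0.030, Thbs1 -0.32 to 0.28 and Thbs2 -0.24 to 0.13. For PSC5 over PSC4, Dcn was -0.66 to 0.92, Postn -0.96 to 0.27, Tnc -0.35 to 0.42, Sparc -0.047 to 0.41 and Fn1 -0.070 to 0.44, and the interaction for Dcn was -0.39 to 1.61. In organoids, Vcan was -0.039 to 0.49 and Sparc -0.43 to 0.0046 for T12-LOH over T6-LOH, and Tnc -0.59 to 2.66 for T69A over T6-LOH. The cause was not tested. Low counts of Dcn, Lum, Postn and Thbs2 limit what organoid libraries can show.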
